A study of Saccharomyces cerevisiae with 8 samples.

Results

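Loss of SCJ1 was examined in Saccharomyces cerevisiae cells that lacked IRE1 and overexpressed SSZ1. The comparison set the 3 arrays titled as SSZ1 overexpression with deletion of both IRE1 and SCJ1 (SSZ1OEΔire1Δscj1) against the 2 arrays titled as SSZ1 overexpression with deletion of IRE1 (SSZ1OEΔire1), 5 of the 8 arrays of the series. The members were chosen by these titles alone, and all measured genes are described: 6242 of 6576 systematic names were well above background on every array of at least 1 of the 2 groups and were tested. The other 3 arrays came from a strain labelled with the IRE1 deletion alone (Δire1), and they enter here as levels given side by side and in the shared estimate of spread. All 3 groups therefore lacked IRE1, and no group with IRE1 or with SCJ1 deleted alone is among these arrays. The labels do not say how SSZ1 was overexpressed, and they give each array its own source code without saying whether the codes are separate clones. Cells were in early log phase at 30 °C in synthetic medium. Since nothing says that the samples were separate cultures, p-values reflect only the spread between arrays of a group, which may be technical.

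SCJ1 encodes a J-domain protein of the endoplasmic reticulum (ER) lumen, which stimulates the ATPase of the Hsp70 chaperone Kar2 and helps secretory proteins to fold. Ire1 senses unfolded proteins in the ER and splices HAC1 mRNA, the step that switches on the unfolded protein response (UPR), so cells without it cannot induce that response in the usual way. Ssz1 is an Hsp70-related protein that works with the J-domain protein Zuo1 at the ribosome and also stimulates the drug resistance factor Pdr1. In yeast, ER stress is also known to be met by the cell wall integrity kinase Slt2 and by the calcium-dependent phosphatase calcineurin.

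Levels are log2 signals scaled to the 75th percentile of the same array, and a difference is the mean of SSZ1OEΔire1Δscj1 (n = 3) minus the mean of SSZ1OEΔire1 (n = 2). Of the 6242 genes, 742 passed the test (limma, Benjamini-Hochberg adjusted p under 0.05), 11.9% of those tested. Of these, 393 rose (6.30%) and 349 fell (5.59%), and 89 rose and 38 fell at least 2-fold. Counts of called genes in the gene lists below are to be read against these shares. The median difference over all genes was −0.0046, and its median size was 0.19. Arrays of the 2 groups did not overlap for 3682 genes (59.0%), 1842 of them higher and 1840 lower without SCJ1. Lack of overlap was thus common, and it was required of the 12 largest rises and 12 largest falls named below. GSC2, YPS3, RTA1 and ARO10 are among those rises. The median gap of a gene between replicates was 0.096 in SSZ1OEΔire1 and 0.096 to 0.14 in SSZ1OEΔire1Δscj1. The 75th percentile of signal was 6291 and 5037 in SSZ1OEΔire1 and 9762, 10016.5 and 9041 in SSZ1OEΔire1Δscj1.

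Both SSZ1OEΔire1 arrays lay in slide row 1 and all 3 SSZ1OEΔire1Δscj1 arrays in row 2, so within these 5 arrays row and genotype cannot be told apart. The Δire1 arrays span both rows: over the 742 called genes, Δire1 replicate 3 in row 2 differed from Δire1 replicate 1 in row 1 by a median of 0.057 in size, with the sign of the called difference in 375 of 742, and from Δire1 replicate 2 in row 1 by 0.153, with that sign in 214. The row 1 arrays Δire1 replicates 1 and 2 differed from each other by 0.17, and the called differences had a median size of 0.57. With slide row as a block, which places the comparison across the Δire1 arrays, 2 genes passed (SCJ1 and ANS1). Without SSZ1OEΔire1 replicate 1, 3 passed (SCJ1, ANS1 and AHA1), the lone array being assumed to vary like the other groups, and without SSZ1OEΔire1 replicate 2, 204 passed. Leaving out SSZ1OEΔire1Δscj1 replicate 1, 2 or 3 gave 127, 273 and 682 calls, and leaving out Δire1 replicate 1, 2 or 3 gave 520, 1528 and 412. Scaling on spike-in probes left 13 calls. The plot of calls by way of processing shows these counts. All 742 genes kept the direction of their difference under each of these fits.

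**Figure D1:**
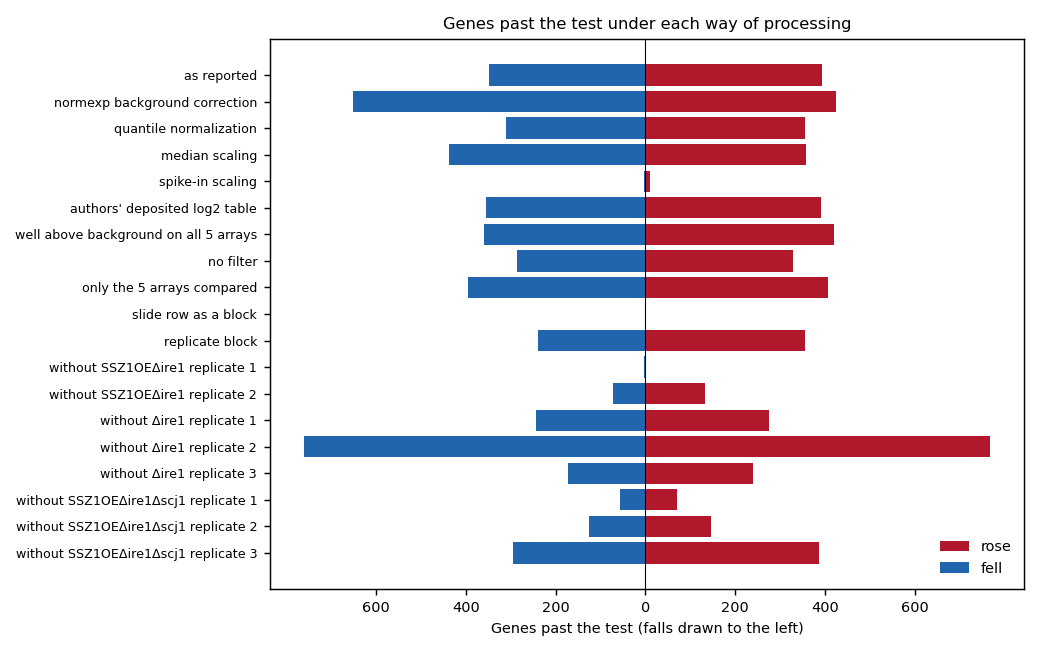
Number of genes past the test (limma adjusted p under 0.05) in SSZ1OEΔire1Δscj1 against SSZ1OEΔire1 under each way of processing, with rises drawn to the right and falls to the left of 0. The bars reach 393 rises and 349 falls as reported, and 2 to 13 genes in all with slide row as a block, with SSZ1OEΔire1 replicate 1 left out, and after spike-in scaling.

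SCJ1 itself (YMR214W) stood at 0.85 and 0.91 in SSZ1OEΔire1, at −9.44, −9.63 and −9.93 in SSZ1OEΔire1Δscj1 and at 0.62, 0.33 and 0.62 in Δire1. No SSZ1OEΔire1Δscj1 array was well above background there, and all other arrays were high. SCJ1 was at least 406-fold lower than in SSZ1OEΔire1 (limma adjusted p = 5.00e-08), a bound that compares the mean with SCJ1 with the dimmest signal accepted as well above background on the arrays without it. Transcripts of the genes on either side did not pass the test: EFR3 differed by 0.20, CEF1 by 0.02, GAS3 by −0.36 and SKY1 by −0.27 (limma adjusted p = 0.365, 0.914, 0.201 and 0.13). CEF1 turned to −0.078 with quantile normalization, and GAS3 and SKY1 passed without Δire1 replicate 2 (limma adjusted p = 0.0364 and 0.0227). SSZ1 (YHR064C) stood at 5.61 and 6.07 in SSZ1OEΔire1, at 5.42, 5.19 and 5.51 in SSZ1OEΔire1Δscj1 and at 3.06, 2.79 and 3.05 in Δire1. The arrays of the 2 overexpressing groups did not overlap, with those lacking SCJ1 lower, and the difference did not pass the test (log2 difference −0.47, SE 0.16, limma adjusted p = 0.0999); it turned to 0.073 with quantile normalization. IRE1 signal did not rise well above background on a single one of the 8 arrays. There IRE1 stood at −10.56 and −10.34 in SSZ1OEΔire1 and at −9.50, −9.55 and −9.68 in SSZ1OEΔire1Δscj1. In Δire1 it stood at −10.53, −10.47 and −9.34, replicate 3 being in slide row 2. Every array of row 2 thus read higher for IRE1 than every array of row 1.

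Of the other genes of the ER Hsp70 system, KAR2 fell and the remaining 5 did not pass the test. KAR2, the ER lumenal Hsp70 itself, stood at 2.64 and 2.83 in SSZ1OEΔire1, at 1.99, 1.99 and 2.0 in SSZ1OEΔire1Δscj1 and at 2.18, 2.11 and 2.15 in Δire1. Every SSZ1OEΔire1Δscj1 array lay below every SSZ1OEΔire1 array and also below the Δire1 arrays, and KAR2 fell by 0.74 (SE 0.08, limma adjusted p = 0.00865). This call ended without SSZ1OEΔire1 replicate 1 (−0.84, limma adjusted p = 0.0631), with slide row as a block (−0.75, 0.187) and with spike-in scaling (−0.63, 0.23). The nucleotide exchange factor genes LHS1 and SIL1 differed by 0.21 and −0.06. The J-domain genes JEM1, SEC63 and ERJ5, which encode the other Kar2 partners in the lumen and at the translocon, differed by −0.13, 0.09 and −0.18 (limma adjusted p of these 5 genes 0.261 to 0.568). HAC1, the transcription factor gene of the UPR, stood at 1.47 and 1.35 in SSZ1OEΔire1 and at 1.54, 1.31 and 1.41 in SSZ1OEΔire1Δscj1, and differed by 0.01 (SE 0.12, limma adjusted p = 0.961). The probe reports total HAC1 transcript; whether it was spliced is not measured here.

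Calls in other lists of ER folding and export ranged from none to a few genes each. Of 37 UPR targets, 1 rose and 4 fell (13.5%, against 11.9% of all genes), with a median difference of −0.064. This share counts SCJ1, the deleted gene, whose fall was fixed in advance. The falls were SCJ1, KAR2, OPI3, a phosphatidylcholine synthesis enzyme (−0.41, limma adjusted p = 0.045), and MPD2, a disulfide isomerase of the ER (−0.33, limma adjusted p = 0.0355), and the rise was UBC7, a ubiquitin-conjugating enzyme of ER-associated degradation (0.30, limma adjusted p = 0.0411). Of 23 genes of ER-associated degradation, UBC7 rose and CUE1, which anchors Ubc7 to the ER membrane, fell by 0.37 (SE 0.09, limma adjusted p = 0.04). This was 8.7% of the list, against 11.9% of all genes called. MPD2 fell and ERV2, an ER thiol oxidase gene that overlaps IRC16, rose by 0.27 among 9 disulfide and proline isomerase genes. ALG6, a glucosyltransferase of N-glycan assembly, was the 1 called gene of 29 in N- and O-glycosylation (0.38). None of the 23 ER exit genes, 24 translocation genes, 9 lectin and glucosidase genes or 21 GPI anchor genes passed limma's test. Leaving out SSZ1OEΔire1 replicate 1 kept 0 of these 6 calls (limma adjusted p 0.219 to 0.313, log2 differences −0.43 to 0.36). The count was 0 without SSZ1OEΔire1 replicate 2 (adjusted p up to 0.173), 0 without SSZ1OEΔire1Δscj1 replicate 1 (adjusted p up to 0.138), 0 without SSZ1OEΔire1Δscj1 replicate 2 (adjusted p up to 0.0965), 2 without SSZ1OEΔire1Δscj1 replicate 3 (adjusted p up to 0.0803), 0 without Δire1 replicate 1 (adjusted p up to 0.081) and 0 without Δire1 replicate 3 (adjusted p up to 0.0893).

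Cell wall genes were among the largest rises. GSC2, the catalytic subunit of glucan synthase that yeast makes under wall and calcium stress, stood at −0.83 and −0.26 in SSZ1OEΔire1, at 2.33, 2.48 and 1.92 in SSZ1OEΔire1Δscj1 and at −0.26, 0.31 and −0.34 in Δire1. All 3 SSZ1OEΔire1Δscj1 arrays exceeded every other array, and GSC2 rose by 2.78 (SE 0.26, limma adjusted p = 0.00578). FKS1, the subunit of unstressed growth, stood at 1.51 and 1.47 on the SSZ1OEΔire1 arrays and at 1.59, 1.69 and 1.60 on the SSZ1OEΔire1Δscj1 arrays and differed by 0.14 (SE 0.11, limma adjusted p = 0.441). YPS3 and YPS1 encode yapsins, GPI-anchored aspartyl proteases of the cell surface. YPS3 stood at −1.62 and −0.39 on the SSZ1OEΔire1 arrays and at 1.46, 1.24 and 0.93 on the SSZ1OEΔire1Δscj1 arrays and rose by 2.22 (SE 0.33, limma adjusted p = 0.0127). YPS1 stood at −2.30 and −2.03 on the SSZ1OEΔire1 arrays and at −0.87, −0.92 and −1.15 on the SSZ1OEΔire1Δscj1 arrays and rose by 1.18 (SE 0.13, limma adjusted p = 0.00865). Neither yapsin gene overlapped between groups, nor did NCW2, a wall protein gene, as for 59.0% of all genes tested. For GSC2 and YPS3, among the 12 largest rises, the choice of genes required this. NCW2 stood at 0.69 and 0.82 on the SSZ1OEΔire1 arrays and at 2.69, 3.15 and 2.33 on the SSZ1OEΔire1Δscj1 arrays and rose by 1.97 (SE 0.26, limma adjusted p = 0.0102).

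Of 30 cell wall integrity targets, 12 rose and 2 fell, with a median of 0.39 against −0.0046 over all genes. The smaller rises were PTP2, a phosphatase of Slt2 (0.83), DFG5 (0.66) and CRH1 (0.66), which encode enzymes that join wall polymers, PRM5 (0.65), CIS3, a Pir wall protein gene (0.61), TRS65 (0.56) and KRE6 (0.40). SLT2, the kinase of the pathway, stood at 1.51 and 1.91 in SSZ1OEΔire1 and at 2.38, 2.27 and 2.20 in SSZ1OEΔire1Δscj1 and rose by 0.57 (SE 0.12, limma adjusted p = 0.0285). The 2 falls were wall proteins, CCW12 (−0.36) and PIR1, which stood at 2.72 and 2.64 on the SSZ1OEΔire1 arrays and at 1.69, 2.18 and 1.90 on the SSZ1OEΔire1Δscj1 arrays (log2 difference −0.76, SE 0.13, limma adjusted p = 0.0184). Its relative PIR3 stood at −2.79 and −1.55 in SSZ1OEΔire1 and at −0.54, 0.44 and −1.09 in SSZ1OEΔire1Δscj1, higher on every array without SCJ1 but short of the test (log2 difference 1.77, SE 0.49, limma adjusted p = 0.0559); it passed in 4 of 18 alternatives (lowest limma adjusted p = 0.0168). Of the 22 genes of Slt2 signalling, SLT2 and BAG7, a GTPase activator gene, rose (BAG7 by 2.45) and SWI4 fell. This was 13.6% of the list, against 11.9% of all genes called.

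Glucan synthesis and remodelling genes split. Of 28, 7 rose and 2 fell (median 0.12). SCW10, a glucanase-like wall protein gene, stood at 2.25 and 2.50 on the SSZ1OEΔire1 arrays and at 3.58, 3.48 and 3.37 on the SSZ1OEΔire1Δscj1 arrays and rose by 1.1 (SE 0.13, limma adjusted p = 0.00951), and CRR1, a transglycosidase of the spore wall, rose by 1.03 (SE 0.26, limma adjusted p = 0.0424). SKN1, GAS2, CRH1 and KRE6 rose by 0.44 to 0.66. The falls were DSE4 and SCW11, glucanases that separate daughter from mother cells, given with the cell cycle genes. Of 14 chitin genes, 1 rose and 0 fell (7.14%, against 11.9% of all genes called). CHS1, the chitin synthase of septum repair, rose by 0.81 (SE 0.12, limma adjusted p = 0.0124). For GSC2, YPS3, NCW2, YPS1, SLT2, BAG7, SCW10, CRR1 and CHS1 the loss of single arrays mattered. Of these 9 calls, 0 remained when SSZ1OEΔire1 replicate 1 was left out, with limma adjusted p of 0.0664 to 0.273 and log2 differences of 0.37 to 2.50. The number that held was 6 without SSZ1OEΔire1Δscj1 replicate 1 (adjusted p up to 0.116), 6 without SSZ1OEΔire1Δscj1 replicate 2 (adjusted p up to 0.0968), 8 without SSZ1OEΔire1Δscj1 replicate 3 (adjusted p up to 0.075), 8 without Δire1 replicate 1 (adjusted p up to 0.0592) and 7 without Δire1 replicate 3 (adjusted p up to 0.0577).

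**Figure D2:**
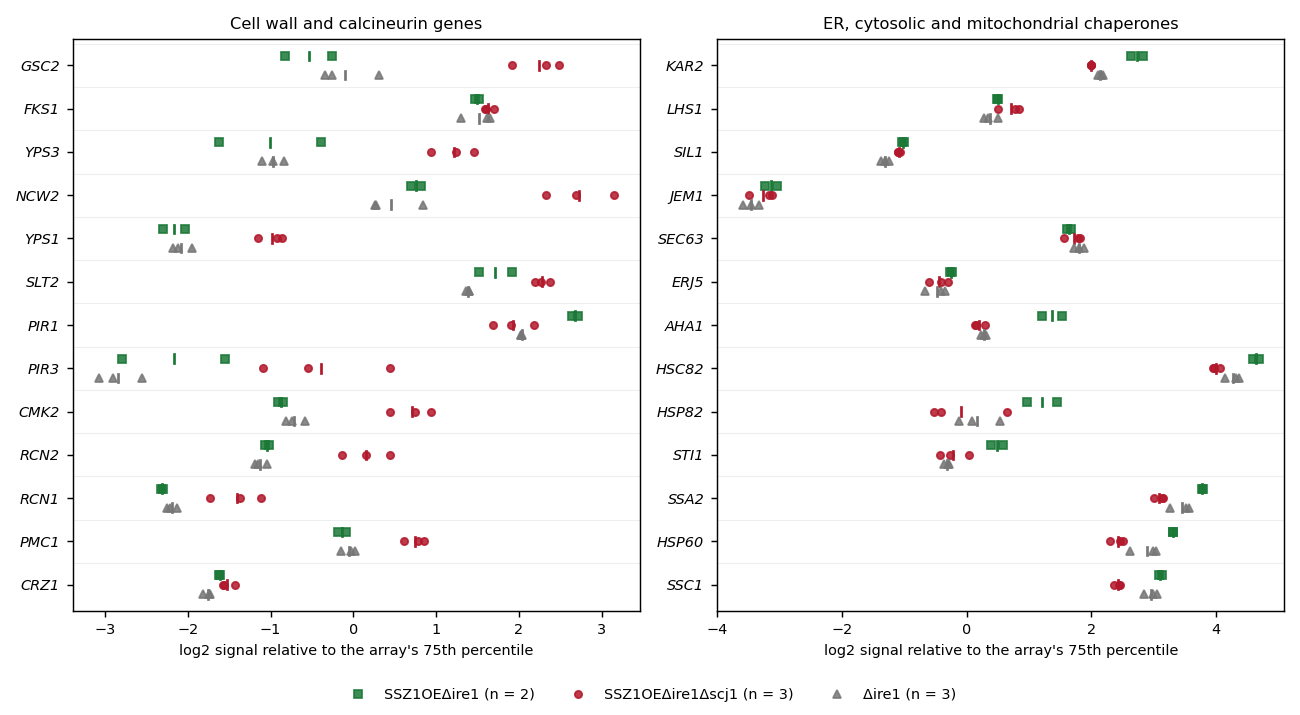
Level of each gene on each of the 8 arrays (log2 signal scaled to its array's 75th percentile), with squares for SSZ1OEΔire1 (n = 2), circles for SSZ1OEΔire1Δscj1 (n = 3), triangles for Δire1 (n = 3) and a short vertical line at each group mean. GSC2, the yapsin genes and CMK2 lie to the right on the SSZ1OEΔire1Δscj1 arrays and KAR2, AHA1, HSP60 and SSC1 to the left, while the group means of FKS1 and CRZ1 differ by 0.14 and 0.09.

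Calcium and calcineurin genes had rises and no falls. Of 20, 7 rose and 0 fell (median 0.23), among them GSC2 and YPS1, which also count in the wall lists. CMK2, a calmodulin-dependent kinase, stood at −0.85 and −0.91 in SSZ1OEΔire1, at 0.94, 0.74 and 0.44 in SSZ1OEΔire1Δscj1 and at −0.81, −0.58 and −0.75 in Δire1. The arrays without SCJ1 lay above all others, and CMK2 rose by 1.59 (SE 0.15, limma adjusted p = 0.00561). RCN2 and RCN1 encode regulators that bind calcineurin. RCN2 stood at −1.02 and −1.07 on the SSZ1OEΔire1 arrays and at 0.15, 0.44 and −0.14 on the SSZ1OEΔire1Δscj1 arrays and rose by 1.20 (SE 0.15, limma adjusted p = 0.00982). RCN1 stood at −2.30 and −2.33 on the SSZ1OEΔire1 arrays and at −1.37, −1.12 and −1.74 on the SSZ1OEΔire1Δscj1 arrays and rose by 0.90 (SE 0.16, limma adjusted p = 0.0195). PMC1, the calcium pump of the vacuole, stood at −0.19 and −0.09 on the SSZ1OEΔire1 arrays and at 0.78, 0.85 and 0.61 on the SSZ1OEΔire1Δscj1 arrays and rose by 0.89 (SE 0.10, limma adjusted p = 0.00936). None of these 4 overlapped between groups, as for 59.0% of all genes tested. In each the Δire1 arrays lay near the SSZ1OEΔire1 arrays (PMC1 at 0.01, −0.15 and −0.03). ENA2, a sodium pump gene, rose by 0.43. CRZ1, the factor that calcineurin activates, stood at −1.62 and −1.61 on the SSZ1OEΔire1 arrays and at −1.43, −1.56 and −1.58 on the SSZ1OEΔire1Δscj1 arrays and did not pass (log2 difference 0.09, SE 0.08, limma adjusted p = 0.435). For CMK2, RCN2, RCN1 and PMC1, single arrays again mattered. Leaving out SSZ1OEΔire1 replicate 1 kept 0 of these 4 calls (limma adjusted p 0.0664 to 0.147, log2 differences 0.84 to 1.62). The count was 3 without SSZ1OEΔire1 replicate 2 (adjusted p up to 0.0821) and 3 without SSZ1OEΔire1Δscj1 replicate 1 (adjusted p up to 0.072).

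Drug resistance genes under Pdr1 and Pdr3 had rises and no falls in this comparison of 2 SSZ1-overexpressing strains. Of 22, 8 rose and 0 fell, with a median of 0.42. RTA1, of a lipid-translocating family, stood at −4.28 and −3.17 in SSZ1OEΔire1, at −0.87, −0.81 and −1.28 in SSZ1OEΔire1Δscj1 and at −5.32, −4.49 and −5.42 in Δire1. All SSZ1OEΔire1Δscj1 arrays exceeded both SSZ1OEΔire1 arrays, which its choice among the 12 largest rises required. The SSZ1OEΔire1 arrays in turn exceeded the Δire1 arrays. RTA1 rose by 2.74 (SE 0.38, limma adjusted p = 0.0112). ICT1, a lysophosphatidic acid acyltransferase, stood at −0.29 and 0.19 on the SSZ1OEΔire1 arrays and at 1.57, 1.41 and 1.12 on the SSZ1OEΔire1Δscj1 arrays and rose by 1.42 (SE 0.18, limma adjusted p = 0.00982). PDR5, the main multidrug exporter, stood at 1.35 and 1.54 on the SSZ1OEΔire1 arrays and at 2.02, 1.97 and 1.99 on the SSZ1OEΔire1Δscj1 arrays and rose by 0.55 (SE 0.09, limma adjusted p = 0.0145). Neither gene overlapped between the groups, as for 59.0% of all genes tested. PLB1, a phospholipase, and RSB1, a sphingoid base exporter, rose by 0.88 and 0.75, and the transporter genes YOR1, PDR10 and SNQ2 by 0.68, 0.65 and 0.41. For RTA1, ICT1, PLB1, RSB1 and PDR5 the left-out arrays gave the following. With SSZ1OEΔire1 replicate 1 left out, 0 of the 5 calls held (limma adjusted p 0.0984 to 0.198, log2 differences 0.45 to 2.19). Of the same calls, 4 without SSZ1OEΔire1 replicate 2 (adjusted p up to 0.176), 2 without SSZ1OEΔire1Δscj1 replicate 1 (adjusted p up to 0.102), 3 without SSZ1OEΔire1Δscj1 replicate 2 (adjusted p up to 0.0757), 4 without Δire1 replicate 1 (adjusted p up to 0.0642) and 3 without Δire1 replicate 3 (adjusted p up to 0.0708) held.

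The 12 genes with the largest rises outside the ER Hsp70 system included GSC2, RTA1, BAG7 and YPS3, and 8 others of varied role. Their choice required that arrays of the 2 groups not overlap. Over these 12 genes Δire1 replicates 2 and 3 differed by a median size of 1.04. Replicates 1 and 2 differed by 0.66, and replicates 1 and 3 by 0.21. Δire1 replicate 3 lay below replicate 2 in all 12. MNC1 (YBR056W-A) stood at −1.16 and −1.22 in SSZ1OEΔire1, at 2.08, 1.92 and 1.43 in SSZ1OEΔire1Δscj1 and at −1.41, −0.24 and −1.41 in Δire1. It was high on all 3 arrays without SCJ1 and rose by 3.0 (SE 0.36, limma adjusted p = 0.00951). YPT53, a Rab GTPase of the endosome, stood at −6.96 and −6.82 on the SSZ1OEΔire1 arrays and at −3.98, −3.54 and −4.42 on the SSZ1OEΔire1Δscj1 arrays and rose by 2.91 (SE 0.35, limma adjusted p = 0.00951). On the Δire1 arrays YPT53 stood at −6.51, −5.88 and −7.04. YNR064C, an epoxide hydrolase, was not well above background on either SSZ1OEΔire1 array and was at least 5.52-fold higher without SCJ1 (limma adjusted p = 0.00951). ROQ1, which redirects the ubiquitin ligase Ubr1 under stress, stood at −4.01 and −4.0 on the SSZ1OEΔire1 arrays and at −1.84, −0.65 and −2.25 on the SSZ1OEΔire1Δscj1 arrays and rose by 2.43 (SE 0.45, limma adjusted p = 0.0214). Its SSZ1OEΔire1Δscj1 arrays spread widely, with replicate 2 highest. On the Δire1 arrays ROQ1 stood at −3.45, −2.75 and −3.65, above both SSZ1OEΔire1 arrays. MOH1, needed for survival in stationary phase, and RRT1 lie side by side in the genome and rose by 2.42 and 2.45. Whether the probes of MOH1 and RRT1 report separate transcripts was not tested. On the Δire1 arrays MOH1 stood at −6.02, −5.21 and −6.81 and RRT1 at −4.61, −3.99 and −5.20.

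PRM4, a pheromone-regulated gene, stood at −5.70 and −6.0 on the SSZ1OEΔire1 arrays and at −3.68, −3.10 and −3.84 on the SSZ1OEΔire1Δscj1 arrays and rose by 2.31 (SE 0.23, limma adjusted p = 0.00797). On the Δire1 arrays PRM4 stood at −5.04, −4.60 and −4.84, above both SSZ1OEΔire1 arrays. ARO10, a decarboxylase of the Ehrlich pathway, stood at −5.73 and −5.89 in SSZ1OEΔire1, at −3.68, −2.75 and −4.29 in SSZ1OEΔire1Δscj1 and at −3.37, −3.06 and −3.76 in Δire1. Its SSZ1OEΔire1Δscj1 arrays exceeded the SSZ1OEΔire1 arrays and overlapped the Δire1 arrays, and the rise was 2.24 (SE 0.41, limma adjusted p = 0.0201). ANS1 (YHR126C), singled out after its values were seen, stood at −5.92 and −5.74 in SSZ1OEΔire1, at −3.69, −3.51 and −3.82 in SSZ1OEΔire1Δscj1 and at −5.79, −5.66 and −5.80 in Δire1 and rose by 2.16 (SE 0.11, limma adjusted p = 0.000317). It was the gene besides SCJ1 that passed under slide row as a block (2.23, limma adjusted p = 0.0412). With ANS1 and the 8 genes of varied role considered as 1 set, single arrays moved the calls. Leaving out SSZ1OEΔire1 replicate 1 kept 1 of these 9 calls (limma adjusted p 0.00966 to 0.186, log2 differences 2.07 to 3.10). The count was 5 without SSZ1OEΔire1 replicate 2 (adjusted p up to 0.122), 5 without SSZ1OEΔire1Δscj1 replicate 1 (adjusted p up to 0.0939) and 8 without SSZ1OEΔire1Δscj1 replicate 2 (adjusted p up to 0.0677).

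**Figure D3:**
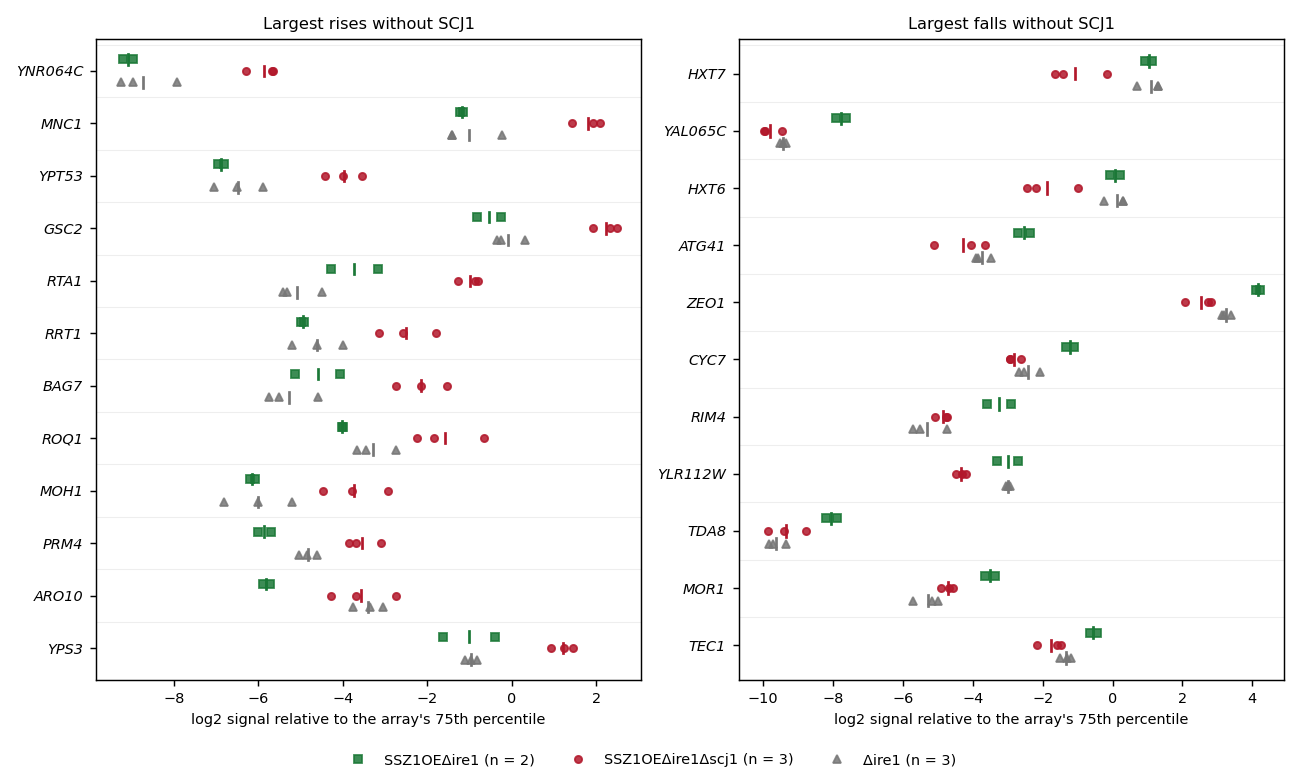
Level of the 12 genes with the largest rises (left) and of genes among the 12 with the largest falls (right) on each of the 8 arrays, in log2 signal scaled to its array's 75th percentile; squares stand for SSZ1OEΔire1 (n = 2), circles for SSZ1OEΔire1Δscj1 (n = 3) and triangles for Δire1 (n = 3), and a short vertical line marks each group mean. Circles and squares do not overlap for any gene drawn, which the choice of genes required; YNR064C in SSZ1OEΔire1 and YAL065C and TDA8 in SSZ1OEΔire1Δscj1 are not well above background.

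Vitamin and NAD genes formed a further group of rises. Of 30 genes for thiamine, biotin and NAD, 12 rose and 2 fell (median 0.44). BNA5, BNA2 and BNA4 encode enzymes of the kynurenine route from tryptophan to NAD. BNA5 stood at −0.95 and −0.17 on the SSZ1OEΔire1 arrays and at 0.80, 0.51 and 0.74 on the SSZ1OEΔire1Δscj1 arrays and rose by 1.24 (SE 0.21, limma adjusted p = 0.0161). BNA4 stood at −0.69 and −0.37 on the SSZ1OEΔire1 arrays and at 0.68, 0.41 and 0.70 on the SSZ1OEΔire1Δscj1 arrays and rose by 1.13 (SE 0.16, limma adjusted p = 0.0112). BNA2, which overlaps YJR079W, rose by 1.21 (SE 0.18, limma adjusted p = 0.0132). The arrays of these 3 BNA genes did not overlap between groups, as for 59.0% of all genes tested. The thiamine pyrimidine genes THI13, THI11, THI5 and THI12 rose by 1.0 to 1.18, but their sequences are nearly identical, so the probes may report one another's transcripts. THI4 and THI6, of thiamine synthesis, rose by 0.59 and 0.50, PET18 by 0.90, and SNO2 and SNO3 by 0.47 and 0.46. The 2 falls were biotin genes, BIO4, an enzyme of biotin synthesis (−0.43), and VHT1, the biotin transporter (−0.66). For BNA5, BNA2, BNA4 and THI13, arrays left out changed the calls. Of these 4 calls, 0 remained when SSZ1OEΔire1 replicate 1 was left out, with limma adjusted p of 0.0984 to 0.2 and log2 differences of 0.85 to 0.97. The number that held was 1 without SSZ1OEΔire1Δscj1 replicate 1 (adjusted p up to 0.0935) and 3 without SSZ1OEΔire1Δscj1 replicate 2 (adjusted p up to 0.0715).

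Mating-type genes differed in opposite directions. Genes specific to a cells included falls and no rises: 0 rose and 4 fell of 7 (median −0.64), and all 7 were well above background in both groups. BAR1, the protease that degrades alpha factor, stood at 0.19 and −0.28 on the SSZ1OEΔire1 arrays and at −1.17, −1.02 and −0.88 on the SSZ1OEΔire1Δscj1 arrays and fell by 0.98 (SE 0.16, limma adjusted p = 0.0153). AGA2, an adhesion subunit of agglutinin, fell by 0.75 (SE 0.11, limma adjusted p = 0.0124), STE2, the alpha-factor receptor, by 0.66 (SE 0.17, limma adjusted p = 0.0452), and STE6, the a-factor exporter, by 0.61 (SE 0.13, limma adjusted p = 0.0286). Genes specific to alpha cells went the other way: 3 rose and 0 fell of 5 (median 0.95). MF(ALPHA)1, an alpha-factor gene, stood at −6.48 and −5.34 on the SSZ1OEΔire1 arrays and at −4.26, −4.37 and −4.14 on the SSZ1OEΔire1Δscj1 arrays and rose by 1.65 (SE 0.40, limma adjusted p = 0.0415). AFB1, which encodes a blocker of a-factor, stood at −2.68 and −2.49 on the SSZ1OEΔire1 arrays and at −1.29, −1.42 and −1.43 on the SSZ1OEΔire1Δscj1 arrays and rose by 1.20 (SE 0.10, limma adjusted p = 0.00493), and STE3, the a-factor receptor, rose by 0.95 (SE 0.18, limma adjusted p = 0.0206). In linear signal relative to the 75th percentile, the 7 a-specific genes summed to 8.20 and 6.23 in SSZ1OEΔire1 and to 3.93, 4.63 and 5.22 in SSZ1OEΔire1Δscj1. The 5 alpha-specific genes summed to 0.320 and 0.389 in SSZ1OEΔire1 and to 0.705, 0.691 and 0.658 in SSZ1OEΔire1Δscj1, where 4 of the 5 were well above background on every array. With SSZ1OEΔire1 replicate 1 left out, 0 of the 7 calls held (limma adjusted p 0.0631 to 0.299, log2 differences −0.74 to 1.11). Of the same calls, 4 without SSZ1OEΔire1 replicate 2 (adjusted p up to 0.0741), 2 without SSZ1OEΔire1Δscj1 replicate 1 (adjusted p up to 0.124), 3 without SSZ1OEΔire1Δscj1 replicate 2 (adjusted p up to 0.0999), 6 without SSZ1OEΔire1Δscj1 replicate 3 (adjusted p up to 0.0826), 5 without Δire1 replicate 1 (adjusted p up to 0.0676) and 5 without Δire1 replicate 3 (adjusted p up to 0.0699) held.

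The haploid and pheromone list, which includes shared mating genes, had 1 rise and 3 falls of 24 (16.7%, against 11.9% of all genes called, median 0.092). TEC1, a factor of filamentous growth, stood at −0.45 and −0.65 in SSZ1OEΔire1, at −2.15, −1.49 and −1.60 in SSZ1OEΔire1Δscj1 and at −1.31, −1.51 and −1.20 in Δire1 and fell by 1.19 (SE 0.20, limma adjusted p = 0.016). FAR1, the cell cycle inhibitor of the pheromone response, fell by 1.02 (SE 0.22, limma adjusted p = 0.0283), and STE12, the pheromone response factor, by 0.38 (SE 0.07, limma adjusted p = 0.0214). FUS2, of cell fusion, rose by 0.40 (SE 0.09, limma adjusted p = 0.0341). Of 24 meiosis and sporulation genes, 2 rose and 0 fell (8.33%, against 11.9% of all genes called). NDT80, the factor of middle meiosis, and SPR3, a sporulation septin, rose by 1.36 and 1.25. RIM4, a meiotic RNA-binding protein outside that list, fell by 1.60. The part of a change in mating-type markers in the other results was not tested. Leaving out SSZ1OEΔire1 replicate 1 kept 0 of these 4 calls (limma adjusted p 0.147 to 0.211, log2 differences −1.09 to 0.41). The count was 0 without SSZ1OEΔire1 replicate 2 (adjusted p up to 0.13), 2 without SSZ1OEΔire1Δscj1 replicate 1 (adjusted p up to 0.0779), 2 without SSZ1OEΔire1Δscj1 replicate 2 (adjusted p up to 0.0682), 3 without SSZ1OEΔire1Δscj1 replicate 3 (adjusted p up to 0.0571), 3 without Δire1 replicate 1 (adjusted p up to 0.0566) and 3 without Δire1 replicate 3 (adjusted p up to 0.0599).

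Cytosolic and mitochondrial chaperone genes had falls and no rises without SCJ1. Of 30 genes of the cytosolic Hsp70, Hsp90 and Hsp104 systems, 0 rose and 7 fell, with a median of −0.087. AHA1, which stimulates the Hsp90 ATPase, stood at 1.21 and 1.53 in SSZ1OEΔire1, at 0.29, 0.15 and 0.14 in SSZ1OEΔire1Δscj1 and at 0.31, 0.24 and 0.28 in Δire1. Its SSZ1OEΔire1 arrays exceeded all others, and AHA1 fell by 1.18 (SE 0.11, limma adjusted p = 0.00561). STI1, which couples Hsp70 to Hsp90, stood at 0.39 and 0.59 in SSZ1OEΔire1, at −0.43, 0.04 and −0.27 in SSZ1OEΔire1Δscj1 and at −0.36, −0.28 and −0.30 in Δire1 and fell by 0.71 (SE 0.14, limma adjusted p = 0.0231). HSC82, a constitutive Hsp90 gene, stood at 4.60 and 4.68 on the SSZ1OEΔire1 arrays and at 3.97, 3.95 and 4.06 on the SSZ1OEΔire1Δscj1 arrays and fell by 0.65 (SE 0.09, limma adjusted p = 0.0113). HSP82, the inducible Hsp90 gene, stood at 0.97 and 1.45 in SSZ1OEΔire1 and at −0.41, 0.66 and −0.53 in SSZ1OEΔire1Δscj1, and its larger difference did not pass (log2 difference −1.30, SE 0.37, limma adjusted p = 0.0599), though it did in 5 of 18 alternatives (lowest limma adjusted p = 0.0213). HSP82 and HSC82 are close copies, so their probes may report both. HCH1, a relative of AHA1, SSA2, a cytosolic Hsp70 with a close copy in SSA1, and the co-chaperone genes YDJ1 and SSE1 fell by 0.66, 0.69, 0.36 and 0.29.

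In the mitochondrial matrix, 0 rose and 2 fell of 13 chaperone genes (15.4%, against 11.9% of all genes called, median −0.27). HSP60, the matrix chaperonin, stood at 3.31 and 3.31 in SSZ1OEΔire1, at 2.51, 2.47 and 2.30 in SSZ1OEΔire1Δscj1 and at 3.04, 2.62 and 3.0 in Δire1 and fell by 0.88 (SE 0.14, limma adjusted p = 0.0143). SSC1, the matrix Hsp70, stood at 3.13 and 3.09 on the SSZ1OEΔire1 arrays and at 2.46, 2.44 and 2.36 on the SSZ1OEΔire1Δscj1 arrays and fell by 0.69 (SE 0.09, limma adjusted p = 0.0097). Neither overlapped between groups, as for 59.0% of all genes tested. Of 10 ribosome-bound chaperone genes, ZUO1, whose product pairs with Ssz1, and EGD2, of the nascent polypeptide-associated complex, fell by 0.41 and 0.38 (limma adjusted p = 0.0312 and 0.036). ZUO1 and EGD2 did not pass with quantile normalization. Their weakest differences over all alternatives were −0.079 and −0.037. HSC82 did not pass with quantile normalization either (−0.27, limma adjusted p = 0.0644). For AHA1, STI1, HCH1, SSA2, HSC82, HSP60 and SSC1, AHA1 alone passed without SSZ1OEΔire1 replicate 1. With SSZ1OEΔire1 replicate 1 left out, 1 of the 7 calls held (limma adjusted p 0.0183 to 0.131, log2 differences −1.34 to −0.67). Of the same calls, 2 without SSZ1OEΔire1 replicate 2 (adjusted p up to 0.11) and 4 without SSZ1OEΔire1Δscj1 replicate 1 (adjusted p up to 0.0713) held. The median of the cytosolic Hsp70, Hsp90, Hsp104 list turned to 0.027 with spike-in scaling.

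Differences went with signal level at the top of the range. The 625 brightest genes held 20 rises and 121 falls (median −0.22), and the 625 dimmest held 26 rises and 22 falls (median −0.089). The 136 cytosolic ribosomal proteins, among the brightest transcripts, held 71 of the falls: 0 rose and 71 fell, the median was −0.44, and all 136 differences were negative. RPS9A stood at 2.81 and 2.68 on the SSZ1OEΔire1 arrays and at 1.66, 1.65 and 1.97 on the SSZ1OEΔire1Δscj1 arrays and fell by 0.98 (SE 0.18, limma adjusted p = 0.0211). RPL29 stood at 5.17 and 5.35 on the SSZ1OEΔire1 arrays and at 4.50, 4.26 and 4.63 on the SSZ1OEΔire1Δscj1 arrays and fell by 0.80 (SE 0.12, limma adjusted p = 0.0132). Neither overlapped between groups, as for 59.0% of all genes tested. In the 71 genes Δire1 replicate 3 (row 2) differed from Δire1 replicate 1 (row 1) by a median size of 0.039, with the same sign as the fall in 50, and from Δire1 replicate 2 (row 1) by 0.143, with that sign in 18. Their falls had a median size of 0.49. Many ribosomal protein genes come in near-identical pairs whose probes cannot be told apart. These falls depended on the scaling: with quantile normalization, which gives every array the same distribution, 3 of the 136 passed and the median was −0.12. Without SSZ1OEΔire1 replicate 1 or 2, 0 and 3 passed, without SSZ1OEΔire1Δscj1 replicate 1, 2 or 3 the counts were 2, 5 and 82, and without Δire1 replicate 1, 2 or 3 they were 38, 100 and 23. Translation factors had 0 rises and 5 falls of 38 (13.2%, against 11.9% of all genes called, median −0.16). The falls included YEF3, an elongation factor (−0.45), HYP2, the eIF5A gene (−0.50), and TEF1 and TEF2, copies of the eEF1A gene (−0.53 and −0.56). As TEF1 and TEF2 are close copies, their probes may report both. TEF1 turned to 0.019 with quantile normalization, where TEF2, HYP2 and YEF3 did not pass either. The weakest differences of TEF2, HYP2 and YEF3 over all alternatives were −0.028, −0.080 and −0.10. Of 65 ribosome assembly genes, 0 rose and 2 fell (median 0.015).

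**Figure D4:**
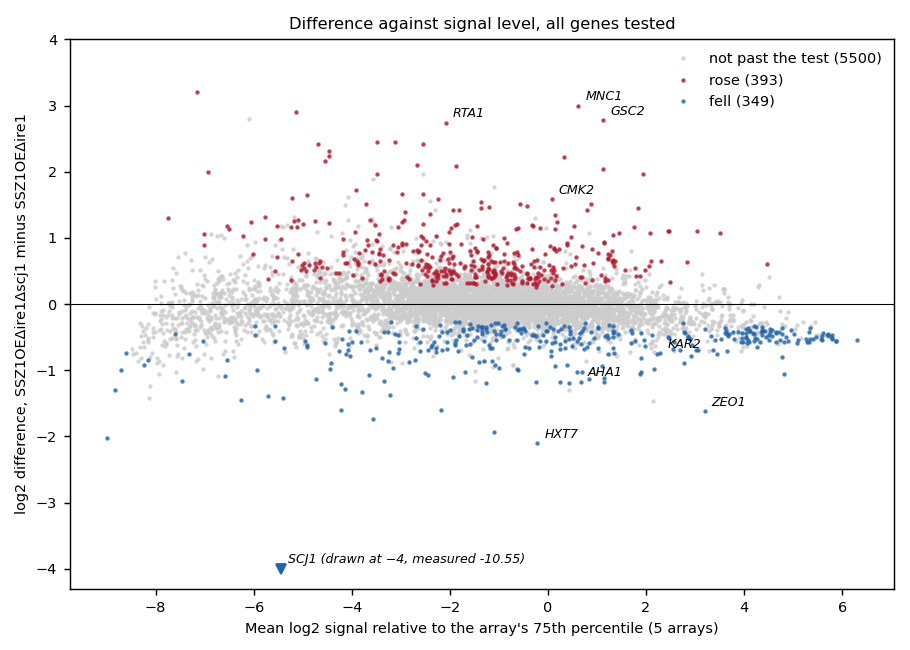
log2 difference (SSZ1OEΔire1Δscj1 minus SSZ1OEΔire1) against the mean level over the 5 arrays for the 6242 genes tested, with genes that rose in red (393), genes that fell in blue (349) and the others in grey; SCJ1 is drawn at −4 because its measured difference of −10.55 lies off the axis. Falls are dense at the bright end, with 121 falls and 20 rises among the 625 brightest genes.

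Amino acid synthesis genes also had falls and no rises. Of 54 genes under Gcn4, 0 rose and 16 fell (median −0.38), and arginine genes led. ARG3, the ornithine carbamoyltransferase, stood at 0.57 and 0.38 on the SSZ1OEΔire1 arrays and at −0.85, −0.91 and −0.37 on the SSZ1OEΔire1Δscj1 arrays and fell by 1.18 (SE 0.24, limma adjusted p = 0.0263). ARG4, the argininosuccinate lyase, stood at 1.17 and 0.71 on the SSZ1OEΔire1 arrays and at −0.51, −0.18 and −0.02 on the SSZ1OEΔire1Δscj1 arrays and fell by 1.17 (SE 0.23, limma adjusted p = 0.0232). ARG56, of ornithine synthesis, fell by 1.06. No array without SCJ1 reached the lowest SSZ1OEΔire1 array in these 3 genes, as for 29.5% of all genes tested. Other arginine genes called included ARG1 (−0.78), CPA1 (−0.75), ARG8 (−0.65) and ARG2 (−0.62), and branched-chain, threonine and aromatic genes followed (ILV2 −0.74, HOM2 −0.69, ILV5 −0.64, LEU4 −0.59, HOM3 −0.58, LEU9 −0.57, ARO8 −0.51). GCN4 itself stood at 2.51 and 2.30 on the SSZ1OEΔire1 arrays and at 1.83, 2.06 and 1.90 on the SSZ1OEΔire1Δscj1 arrays and fell by 0.47 (SE 0.10, limma adjusted p = 0.028). For ARG3, ARG4, ARG56 and GCN4, the arrays left out mattered. Of these 4 calls, 0 remained when SSZ1OEΔire1 replicate 1 was left out, with limma adjusted p of 0.189 to 0.214 and log2 differences of −1.08 to −0.37. The number that held was 0 without SSZ1OEΔire1 replicate 2 (adjusted p up to 0.0849), 0 without SSZ1OEΔire1Δscj1 replicate 1 (adjusted p up to 0.095), 1 without SSZ1OEΔire1Δscj1 replicate 2 (adjusted p up to 0.0711), 3 without SSZ1OEΔire1Δscj1 replicate 3 (adjusted p up to 0.0553) and 3 without Δire1 replicate 3 (adjusted p up to 0.0537).

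Falls outnumbered rises among methionine and one-carbon genes. Of 28 methionine and sulfur genes, 1 rose and 6 fell (median −0.32). MMP1, the S-methylmethionine permease, stood at −2.49 and −2.79 on the SSZ1OEΔire1 arrays and at −3.87, −3.85 and −3.69 on the SSZ1OEΔire1Δscj1 arrays and fell by 1.16 (SE 0.14, limma adjusted p = 0.00951). MHT1, the methyltransferase encoded next to it that turns S-methylmethionine into methionine, fell by 1.07 (SE 0.13, limma adjusted p = 0.00951). SAM3, the S-adenosylmethionine permease, MET6, the methionine synthase, MUP1, the methionine permease, and MET13 fell by 1.02, 0.93, 0.81 and 0.46, and MET3, the ATP sulfurylase, rose by 0.63. Of 11 glycine and one-carbon genes, 0 rose and 3 fell: GCV2 (−0.96) and GCV3 (−0.57), of glycine cleavage, and SHM1 (−0.41), the mitochondrial serine hydroxymethyltransferase. Of 18 amino acid permeases, AGP2 rose (0.57) and MUP1, DIP5 (−0.71) and OPT2 (−0.57) fell. For MMP1, MHT1, SAM3, MET6, MUP1, GCV2, GCV3 and SHM1 the counts without single arrays follow. With SSZ1OEΔire1 replicate 1 left out, 0 of the 8 calls held (limma adjusted p 0.0984 to 0.231, log2 differences −1.06 to −0.33). Of the same calls, 3 without SSZ1OEΔire1 replicate 2 (adjusted p up to 0.0811), 4 without SSZ1OEΔire1Δscj1 replicate 1 (adjusted p up to 0.0992), 5 without SSZ1OEΔire1Δscj1 replicate 2 (adjusted p up to 0.0744) and 7 without SSZ1OEΔire1Δscj1 replicate 3 (adjusted p up to 0.0528) held.

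Among cell cycle genes, those of G2/M and M/G1 had falls and no rises. Of 35 genes of G2/M and the M/G1 boundary, 0 rose and 9 fell (median −0.35), and several of the falls were genes of daughter cell separation. DSE4, a glucanase made in daughter cells, stood at 1.69 and 1.32 in SSZ1OEΔire1, at 0.27, 0.22 and 0.65 in SSZ1OEΔire1Δscj1 and at 1.51, 1.05 and 1.44 in Δire1 and fell by 1.13 (SE 0.19, limma adjusted p = 0.0173). EGT2, of cell separation, stood at 2.60 and 2.43 on the SSZ1OEΔire1 arrays and at 1.42, 1.35 and 1.68 on the SSZ1OEΔire1Δscj1 arrays and fell by 1.03 (SE 0.14, limma adjusted p = 0.0113). SCW11, a glucanase, fell by 0.88, and AMN1, DSE3 and DSE1 by 0.81, 0.70 and 0.60. PCL9, a cyclin of early G1, CDC20, the activator of the anaphase-promoting complex, and SWI5, a factor for early G1 genes, fell by 0.92, 0.59 and 0.54. Of 23 G1/S genes, 2 rose and 1 fell (median −0.019). PCL1, a G1 cyclin, stood at −0.41 and 0.11 on the SSZ1OEΔire1 arrays and at 1.04, 0.69 and 0.87 on the SSZ1OEΔire1Δscj1 arrays and rose by 1.02 (SE 0.16, limma adjusted p = 0.0145), CLN1, another, rose by 0.84 (SE 0.16, limma adjusted p = 0.0228), and SWI4, a G1/S transcription factor, fell by 0.58 (SE 0.13, limma adjusted p = 0.0337). None of 11 histone genes passed limma's test. For DSE4, EGT2, PCL9, SCW11, PCL1, CLN1 and SWI4, single arrays decided the calls. Leaving out SSZ1OEΔire1 replicate 1 kept 0 of these 7 calls (limma adjusted p 0.0984 to 0.195, log2 differences −0.94 to 0.76). The count was 6 without SSZ1OEΔire1 replicate 2 (adjusted p up to 0.128), 3 without SSZ1OEΔire1Δscj1 replicate 1 (adjusted p up to 0.103), 5 without SSZ1OEΔire1Δscj1 replicate 2 (adjusted p up to 0.0735) and 6 without Δire1 replicate 3 (adjusted p up to 0.0577).

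The largest of the 12 falls chosen after SCJ1 was that of a sugar uptake gene. HXT7, a high-affinity hexose transporter gene, stood at 1.14 and 0.94 in SSZ1OEΔire1, at −1.63, −0.15 and −1.41 in SSZ1OEΔire1Δscj1 and at 0.71, 1.29 and 1.30 in Δire1, with SSZ1OEΔire1Δscj1 replicate 2 between the other SSZ1OEΔire1Δscj1 arrays and the SSZ1OEΔire1 arrays. HXT7 fell by 2.10 (SE 0.41, limma adjusted p = 0.0236). HXT6, whose sequence is nearly the same, so that the probes may report both, stood at 0.20 and −0.09 on the SSZ1OEΔire1 arrays and at −2.45, −1.0 and −2.19 on the SSZ1OEΔire1Δscj1 arrays and fell by 1.94 (SE 0.40, limma adjusted p = 0.0277). HXT1, the low-affinity transporter, rose by 0.63 (SE 0.15, limma adjusted p = 0.0369), and these 3 were the calls among 17 hexose transporters. CYC7, the minor cytochrome c isoform, stood at −1.11 and −1.34 in SSZ1OEΔire1, at −2.93, −2.94 and −2.61 in SSZ1OEΔire1Δscj1 and at −2.55, −2.08 and −2.68 in Δire1 and fell by 1.60 (SE 0.19, limma adjusted p = 0.00951), the 1 call among 44 respiratory chain and ATP synthase genes. CIT2, the peroxisomal citrate synthase and a marker of retrograde signalling, stood at −0.50 and 0.30 on the SSZ1OEΔire1 arrays and at 2.23, 2.18 and 1.43 on the SSZ1OEΔire1Δscj1 arrays and rose by 2.04 (SE 0.36, limma adjusted p = 0.0195). CIT3, a mitochondrial citrate synthase, rose by 0.89.

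Of 28 glycolysis and fermentation genes, 2 rose and 4 fell (median −0.26, turning to 0.027 with quantile normalization). GPD1, of glycerol synthesis, stood at 0.54 and 0.85 on the SSZ1OEΔire1 arrays and at 1.88, 1.82 and 1.51 on the SSZ1OEΔire1Δscj1 arrays and rose by 1.04 (SE 0.14, limma adjusted p = 0.0112), and PDC6, a minor pyruvate decarboxylase, rose by 1.22 (SE 0.25, limma adjusted p = 0.0276). PGK1, ADH1, FBA1 and CDC19, abundant glycolytic enzymes, fell by 0.43 to 0.56, and ADH1 turned to 0.023 with quantile normalization. Of 27 glucose-repressed genes, JEN1, the lactate permease, MAL33 and CAT8, a factor of gluconeogenesis, rose by 0.89, 0.79 and 0.55, and ALD6 fell by 0.69. This was 14.8% of the list, against 11.9% of all genes called. For HXT7, HXT6, HXT1, CYC7, CIT2, CIT3, PDC6 and GPD1 the arrays left out changed the calls. Of these 8 calls, 0 remained when SSZ1OEΔire1 replicate 1 was left out, with limma adjusted p of 0.0984 to 0.256 and log2 differences of −2.0 to 1.64. The number that held was 5 without SSZ1OEΔire1 replicate 2 (adjusted p up to 0.0904), 2 without SSZ1OEΔire1Δscj1 replicate 1 (adjusted p up to 0.0992), 4 without SSZ1OEΔire1Δscj1 replicate 2 (adjusted p up to 0.082), 7 without SSZ1OEΔire1Δscj1 replicate 3 (adjusted p up to 0.0555), 7 without Δire1 replicate 1 (adjusted p up to 0.0528) and 7 without Δire1 replicate 3 (adjusted p up to 0.0645).

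Other genes among the 12 largest falls were varied. ZEO1, a membrane-associated protein of the wall integrity pathway, stood at 4.12 and 4.21 in SSZ1OEΔire1, at 2.73, 2.08 and 2.83 in SSZ1OEΔire1Δscj1 and at 3.15, 3.40 and 3.19 in Δire1. It was highest on both SSZ1OEΔire1 arrays and fell by 1.62 (SE 0.21, limma adjusted p = 0.0102). ATG41, of autophagy, stood at −2.38 and −2.70 on the SSZ1OEΔire1 arrays and at −5.11, −3.65 and −4.06 on the SSZ1OEΔire1Δscj1 arrays and fell by 1.73 (SE 0.38, limma adjusted p = 0.0323). RIM4, YLR112W and MOR1 fell by 1.60, 1.33 and 1.21. YAL065C and TDA8 did not rise well above background on the SSZ1OEΔire1Δscj1 arrays; YAL065C was at least 1.01-fold lower (limma adjusted p = 0.00493), and TDA8 gave no bound above 1. With SSZ1OEΔire1 replicate 1 left out, 0 of the 7 calls held (limma adjusted p 0.0631 to 0.217, log2 differences −1.94 to −1.03). Of the same calls, 3 without SSZ1OEΔire1 replicate 2 (adjusted p up to 0.148), 4 without SSZ1OEΔire1Δscj1 replicate 1 (adjusted p up to 0.102), 6 without SSZ1OEΔire1Δscj1 replicate 2 (adjusted p up to 0.064) and 6 without Δire1 replicate 1 (adjusted p up to 0.0532) held.

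Subtelomeric COS genes, which encode membrane proteins of the endosome, had rises and no falls. Of 17 COS genes and Y' element helicases, 6 rose and 0 fell (median 0.32). COS1 stood at −1.67 and −1.33 on the SSZ1OEΔire1 arrays and at −0.49, −0.35 and −0.64 on the SSZ1OEΔire1Δscj1 arrays and rose by 1.0 (SE 0.14, limma adjusted p = 0.0112), and COS8, COS3, COS2, COS4 and COS5 rose by 0.46 to 0.68. The COS genes are close copies, COS2 and COS3 most of all, so the probes may not separate them. For COS1, COS8, COS3 and COS2, the calls without single arrays were as follows. Leaving out SSZ1OEΔire1 replicate 1 kept 0 of these 4 calls (limma adjusted p 0.107 to 0.271, log2 differences 0.43 to 0.83). The count was 1 without SSZ1OEΔire1Δscj1 replicate 1 (adjusted p up to 0.116), 3 without SSZ1OEΔire1Δscj1 replicate 2 (adjusted p up to 0.103), 3 without SSZ1OEΔire1Δscj1 replicate 3 (adjusted p up to 0.0506), 3 without Δire1 replicate 1 (adjusted p up to 0.0622) and 3 without Δire1 replicate 3 (adjusted p up to 0.0692).

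Across all 55 lists, the share of called members is drawn in the plot of calls by gene list, beside 6.30% rises and 5.59% falls over all genes. Ergosterol genes had 4 rises of 29 (HES1 0.87, ERG26 0.42, ERG1 0.39, ERG27 0.33) with a median of 0.023. Of 30 general stress genes, YGP1 (1.45), DDR48 (0.94) and TPS2 (0.32) rose and GRE3 (−0.40) fell. Vacuolar and autophagy genes had 2 rises, PRB1, a vacuolar protease (1.08), and ATG8 (1.02), and 1 fall, VMA2 (−0.43), of 17. Of 21 oxidative stress genes, GTT2 rose (0.79) and the peroxiredoxin AHP1 (−1.06) and superoxide dismutase SOD1 (−0.58) fell. Fatty acid genes had FOX2 higher (0.61) and FAA1 (−0.93), ACC1 (−0.76) and FAA3 (−0.32) lower, of 18. No gene of the proteasome (34), phosphate (23), zinc and copper (15), seripauperin (16), flocculin (9) or marker gene (8) lists passed limma's test. The seripauperin list nevertheless had a median of 0.43. Except for SCJ1 and AHA1, 0 members of any list passed without SSZ1OEΔire1 replicate 1.

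**Figure D5:**
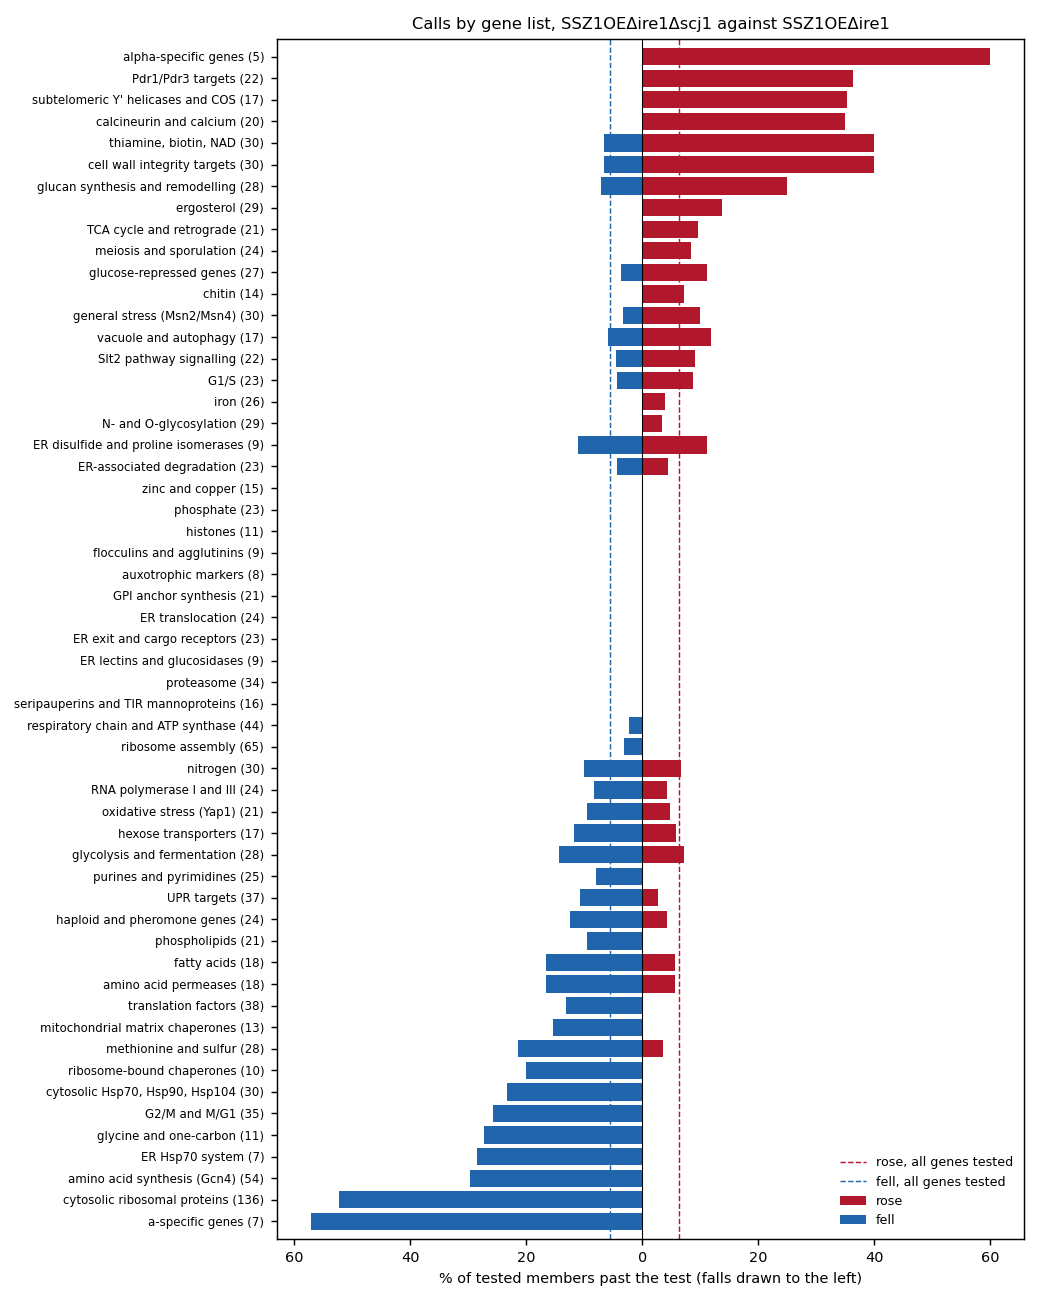
Share of the tested members of each of 55 gene lists that rose (red, to the right) or fell (blue, to the left) in SSZ1OEΔire1Δscj1 against SSZ1OEΔire1, in percent, with the number tested in brackets and dashed lines at the shares over all genes tested (6.30% rose, 5.59% fell). Alpha-specific, wall, calcineurin, drug resistance, vitamin and COS lists lie to the right. Lists of a-specific, ribosomal protein, amino acid synthesis, G2/M and M/G1, and chaperone genes lie to the left. Small lists move far with a single gene.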

How the data were processed

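RNA from 8 yeast samples was hybridised to the 8 arrays of 1 Agilent slide in a single colour, and groups came from the genotype in the titles. Per the labels' protocols, cells were shaken at 200 rpm and 30 °C until OD600 0.2 to 0.3, and 100 ng of RNA was labelled with Cy3 from an oligo-dT primer. The submitters' processing notes name Agilent Feature Extraction, version 10.7.1.1, as the authors' source of the spot intensity values. These intensities come background-subtracted and spatially detrended, without scaling between arrays, per the file headers. The values of SSZ1OEΔire1Δscj1 replicate 3 had been saved with 3 significant digits. The authors' deposited log2 table, used as an alternative, matched the levels used here after each probe's median over arrays was taken off (r = 1.00 on every array), with column medians from −0.032 to 0.011.

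For each probe the log2 processed signals of its 9 to 10 spots were averaged without outlier spots, and the 75th percentile of the non-control probes on that array was subtracted. A probe counted as well above background where more than 0.5 of its spots did. The brightest probe stood for each of 6576 systematic names, of which 5907 matched a RefSeq gene table (assembly R64), used for symbols and neighbours only. Probes of the 39 names with several disagreed by up to 1.11 in this comparison (TC21605). No positions are given, because the array design was built on another genome release. Differences were tested two-sided with limma (version 3.58.1, run in R 4.3.3 with the data.table package, version 1.17.8), as 3 group means over all 8 arrays with eBayes and Benjamini-Hochberg adjustment over the 6242 genes tested, at 0.05. The steps were also tested on simulated data. The well-above-background share was 90.5% to 95.9% of spots and 0 spots were saturated. Negative control spots had medians of 3.55 to 5.05 in slide row 1 and 9.49 to 14.4 in row 2. The number of arrays limits the precision.

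Alternatives were normexp background correction (offset 50, on median spot signals because mean signals were not in the files), quantile, median and spike-in scaling, the deposited table, 2 other filters, a fit of the 5 arrays alone, slide row or replicate number as a block, and leaving out each array. The comparison, the 55 gene lists and the rules for members were chosen with earlier results of these data known, so list counts are descriptions and the lists were not tested as sets. Named genes were SCJ1, SSZ1, IRE1, HAC1, the ER Hsp70 genes, the 2 nearest genes on each side of SCJ1, the 12 highest and 12 lowest differences among called genes with RefSeq names and no overlap, and up to 4 called members per list. Other members of a list are named from the complete set of its calls. FKS1, PIR3, HSP82, CRZ1, PRY2, YMR304C-A and ANS1 were named after their values were seen. Some named genes are not reported here.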

Additional observations from a re-analysis of the deposited data

How the results depend on the processing

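Of 742 calls, all kept their direction under each alternative that fitted them, except 12 with quantile normalization, which kept 730 of 742. The number of calls did not hold. It was 13 with spike-in scaling (11 rose, 2 fell) and 2 with slide row as a block (1 rose, 1 fell). Leaving out 1 array gave 3 to 1528 calls, with 1 to 768 rises and 2 to 760 falls; the lowest counts were without SSZ1OEΔire1 replicate 1 and the highest without Δire1 replicate 2, whose removal lowered the median SE from 0.12 to 0.086. The cause of these shifts was not tested further. Normexp background correction called 1076 genes, 424 rises and 652 falls (39.4% rises, against 53.0%). The other scalings, filters and the deposited table gave 616 to 796 calls, and the 5 arrays alone 804. Spike-in scaling moved the median of all genes to 0.11. With replicate number as a replicate block, 595 genes passed (355 rose, 240 fell); same-numbered arrays of the groups compared correlated in their deviations at 0.11 for replicate 1 and 0.0029 for replicate 2, so the numbers are not shown to pair the arrays.

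Of 150 named genes that passed, 38 passed under all of the other 15 alternatives, leaving aside spike-in scaling, slide row and SSZ1OEΔire1 replicate 1. The differences that turned sign were those of SSZ1 (0.073), CEF1 (−0.078), ADH1 (0.023) and TEF1 (0.019) with quantile normalization, HAC1 (−0.031) and CEF1 (−0.026) with median scaling, SIL1 (0.051) with spike-in scaling, HAC1 with 1 array left out (−0.050 to 0.069, below 0 without SSZ1OEΔire1 replicate 2 and without SSZ1OEΔire1Δscj1 replicate 1), and CEF1 with 1 array left out (−0.073 to 0.10, below 0 without SSZ1OEΔire1 replicate 1 and without SSZ1OEΔire1Δscj1 replicate 2). Of list medians larger than the spread between arrays of a group, those turned were glycolysis with quantile normalization (0.027) and purines and pyrimidines with spike-in scaling (0.0022). Counting smaller medians too, 15 of 55 turned from below to above 0 with spike-in scaling, and 0 to 8 under each other alternative. Genes not well above background in a group have a bound only: this held for 8 of the calls in SSZ1OEΔire1Δscj1 and 1 in SSZ1OEΔire1.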

Other observations

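Nitrogen genes had 2 rises and 3 falls of 30 (16.7%, against 11.9% of all genes called, median 0.12). MEP1, an ammonium permease, and DAL1, the allantoinase, rose by 0.65 and 0.40, while GDH1, the glutamate dehydrogenase of ammonium assimilation, CAR1, the arginase, and GAT1, a nitrogen transcription factor, fell by 0.66, 0.61 and 0.56. FIT1, a wall mannoprotein that helps retain siderophore iron, was the 1 call among 26 iron genes (0.96). Purine genes had 2 falls of 25 (8%, against 11.9% of all genes called). These were BAS1, a regulator of purine genes (−0.54), and FCY2, the purine-cytosine permease (−0.55). Of 24 genes of RNA polymerase I and III, 1 rose and 2 fell (12.5%, against 11.9% of all genes called). MAF1, the repressor of RNA polymerase III, rose by 0.51. RPC53, a subunit gene of polymerase III, and RPA43, a subunit gene of polymerase I, fell by 0.35 and 0.33. CPT1, of phospholipid synthesis, fell by 0.52.

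PRY2, a secreted sterol-binding protein, and YMR304C-A were among the 13 genes past limma's test with spike-in scaling and were singled out after their values were seen. By systematic name YMR304C-A lies next to SCW10 (YMR305C), also among the 13. Whether their probes report the same transcript was not tested. PRY2 stood at 0.87 and 1.25 on the SSZ1OEΔire1 arrays and at 2.39, 2.18 and 2.12 on the SSZ1OEΔire1Δscj1 arrays (log2 difference 1.17, limma adjusted p = 0.00982). YMR304C-A stood at 2.82 and 2.89 on the SSZ1OEΔire1 arrays and at 3.97, 4.03 and 3.80 on the SSZ1OEΔire1Δscj1 arrays (1.08, limma adjusted p = 0.00968).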
